A study of Mus musculus with 175 samples.

Results

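The BCL2 family survival genes were read in single cells of the mouse fetal liver. The set held 10 genes, found by symbol in the deposited gene annotation: the survival genes Bcl2, Bcl2l1 and Mcl1, the pore formers Bax and Bak1, and the BH3-only genes Bcl2l11, Bbc3, Pmaip1, Bid and Bad. The annotation held 49585 mouse genes, of which 9238 had a read in at least 25% of the retained cells, and 7 of the 10 members were among these 9238. Bcl2l11, Bbc3 and Pmaip1 were read in too few cells to be among them, and their values rest on those few cells.

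Livers of E14.5 embryos from 2 litters were pooled and sorted into 4 populations, P2- and P2+ megakaryocyte erythroid progenitors (MEPs) and P2- and P2+ common myeloid progenitors (CMPs). P2 is the proximal promoter of Runx1, a transcription factor gene of blood formation, and its activity was read through a surface hCD4 reporter on 1 Runx1 allele. All 4 populations shared that reporter allele and the background, a C57BL/6 by ICR cross; the genotype field of the labels names a second reporter as P2-GFP and the extraction protocol names it as P1-GFP. The sorting of MEPs and CMPs was by CD34, so Cd34 levels are no finding between them, and the CMPs are labelled low and high and were read as P2- and P2+. Cells with surface CD41 were left out of both gates and cells with CD150 were kept. The embryos were not kept apart, so each population was 1 sample: no test between populations was possible and no p-value is given. All intervals are 95% intervals, and none covers the spread between embryos. Those of levels and ratios treat reads as independent, and reads carried no molecular identifiers, so they can be too narrow even for counting error. Those of shares of cells treat the cells of 1 sample as independent draws.

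Of 175 deposited cells, 172 passed the filters: 56 MEPs that were P2- and 47 that were P2+, and 27 CMPs that were P2- and 42 that were P2+, with 571806 to 2827426 reads per cell. The labels were checked against marker genes. Summed erythroid markers (Klf1, Gata1, Epor and 4 others) stood at 1778, 998, 805 and 442 CPM (reads of a gene per 1000000 reads on mouse genes) in the order P2- MEP and P2+ MEP, then P2- CMP and P2+ CMP, and summed granulocyte and monocyte markers at 16.3, 66.5, 404 and 653 CPM. The globin gene Hbb-bt, one of those erythroid markers, went against that order, at 9.51, 9.79, 232.2 and 120.6 CPM. Wherever 4 values follow without names they are in the order of the populations given here. Megakaryocytic markers stood at 53.9, 474, 532 and 618 CPM, and Pf4, Gp9 and Gp1bb were at 0 reads in P2- MEPs. Macrophage markers had at most 3 reads in any population, with Adgre1, Cd5l, C1qa and C1qb at 0 in all 4. Among 5 lymphoid markers only Cd79a was read, with 59 reads in P2- CMPs, and 4 hepatocyte markers summed to 10.3 to 24.7 CPM. For 1 P2- CMP another label names the MEP subtype.

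BCL2 family proteins decide whether the mitochondrial outer membrane is opened in a cell under stress. BCL2, BCL-XL (from Bcl2l1) and MCL1 hold the pore formers BAX and BAK in check, and the BH3-only proteins sense damage, growth factor loss or death receptor signals and either bind the survival proteins or activate BAX and BAK directly. In the erythroid and megakaryocytic lineages BCL-XL is the best known survival protein: it is induced downstream of the erythropoietin receptor and STAT5, and it sets the lifespan of platelets, while MCL1 is required by stem cells and early progenitors.

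Bcl2l1 differed most between the populations among the 7 members read in at least 25% of cells. P2- MEPs had 10.5 CPM (9.34 to 11.7), P2+ MEPs had 32.6 CPM (30.7 to 34.7), P2- CMPs had 45 CPM (41.98 to 48.2) and P2+ CMPs had 89.9 CPM (86.8 to 93.0), from 320, 1030, 825 and 3267 reads. None of these counting intervals overlapped. Within the populations the cells overlapped widely: the lowest cell was at 0 CPM in each, the medians were 0, 8.75, 9.07 and 87.0 CPM, and the highest cells reached 89.6, 247.3, 184 and 256.9 CPM.

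The share of cells with a Bcl2l1 read was in the same order. At an equal depth of 100000 mouse reads per cell, 17 of 56 P2- MEPs had a read (30.4%, exact binomial interval 18.8 to 44.1), as did 23 of 47 P2+ MEPs (48.9%, 34.1 to 63.9), 14 of 27 cells of the P2- CMPs (51.9%, 31.9 to 71.3) and 37 of 42 cells of the P2+ CMPs (88.1%, 74.4 to 96.0). Without thinning the numbers were 21, 26, 16 and 37 cells. P2+ MEPs and P2- CMPs were neighbours whose shares did not differ beyond their intervals, and only P2+ CMPs had an interval apart from the other 3. Among cells with a read the median level was 20.9, 54.2, 58.4 and 103.4 CPM, so both the share of cells and the level in those cells were higher in that order.

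As log2 ratios, Bcl2l1 was 1.64 higher in P2+ than in P2- MEPs (interval 1.46 to 1.83), 2.11 higher in P2- CMPs than in P2- MEPs (1.92 to 2.30) and 1.46 higher in P2+ CMPs than in P2+ MEPs (1.36 to 1.56). These passed the 2-fold change that was taken as a call. P2+ against P2- CMPs gave 0.998 (0.89 to 1.110), just short of 2-fold. Over the alternative scalings and cell sets this last ratio ran from 0.998 to 1.33 and passed 2-fold in most of them, including 1.08 without the cell whose labels conflict.

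The Bcl2l1 gene spans chr2:152780668-152831728 on the minus strand (GRCm38), and none of its exon bases overlapped another gene. Reads were counted per gene, so the long and short splice forms were not told apart. The RefSeq promoter table (GRCm38.p6) held 9 of the 10 members with 15 start sites between them, and the 250 bases before each start were searched on both strands for the letters of GATA sites (AGATAA, also with T as its first letter or G as its last) and RUNX sites (TGTGGT, also TGCGGT), the factor families that set erythroid and megakaryocytic fate. These kinds of motif do not overlap each other, and they were chosen after other motifs had been looked at. The windows below are shown because Bcl2l1 and Bcl2 had ratios past 2-fold among the 7 members read in at least 25% of cells, and Bcl2l11 had the largest ratio in the other direction between P2+ and P2- MEPs; motif letters are in capitals, each sequence is read 5′ to 3′ on the gene's strand, and it ends at the base before the start. One of 3 Bcl2l1 windows (chr2:152828490-152828739, minus strand) held a GATA match that began 41 bases before the start, and the other two held none of either kind. The single Bcl2 window (chr1:106714291-106714540, minus strand) held neither. Each of 2 Bcl2l11 windows held a RUNX match, shown for the window where it began 30 bases before the start and lay on the opposite strand (chr2:128125788-128126037, plus strand).
Bcl2l1: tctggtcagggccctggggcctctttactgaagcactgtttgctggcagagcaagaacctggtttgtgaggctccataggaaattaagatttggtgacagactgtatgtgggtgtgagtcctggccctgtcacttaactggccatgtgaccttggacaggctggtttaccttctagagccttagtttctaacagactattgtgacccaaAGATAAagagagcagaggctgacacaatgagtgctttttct
Bcl2: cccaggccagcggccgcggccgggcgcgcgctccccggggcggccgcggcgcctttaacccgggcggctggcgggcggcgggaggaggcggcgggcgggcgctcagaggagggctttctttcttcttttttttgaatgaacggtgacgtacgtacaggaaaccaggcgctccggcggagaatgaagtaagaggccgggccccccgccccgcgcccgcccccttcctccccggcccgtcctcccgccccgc
Bcl2l11: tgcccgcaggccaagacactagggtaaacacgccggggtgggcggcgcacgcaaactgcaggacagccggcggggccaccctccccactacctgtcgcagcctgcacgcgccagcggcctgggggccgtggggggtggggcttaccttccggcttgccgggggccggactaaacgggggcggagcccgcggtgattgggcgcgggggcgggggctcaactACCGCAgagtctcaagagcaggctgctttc
Elsewhere in the set, Bid and Bak1 had a match each, GATA in Bid and RUNX in Bak1. Over all 32851 promoter windows of the same length, 26.5% held a GATA match and 18.6% a RUNX match. Such matches are letters in a window, and no binding was measured.

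Bcl2, the founding survival gene of the family, was sparse. P2- MEPs had 3.56 CPM (2.92 to 4.30), P2+ MEPs had 8.11 (7.15 to 9.16), P2- CMPs had 13.6 (11.9 to 15.4) and P2+ CMPs had 21.8 (20.3 to 23.4), from 109 reads in the first to 794 in the last. The order of the populations was that of Bcl2l1, with intervals that did not overlap. Most cells of every population had no read, so all 4 medians were 0, and the highest cells reached 48.3, 115.8, 119.8 and 152.1 CPM.

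The log2 ratio of Bcl2 was 1.19 between P2+ and P2- MEPs (0.86 to 1.52), 1.93 between P2- CMPs and P2- MEPs (1.60 to 2.27), 1.43 between P2+ CMPs and P2+ MEPs (1.22 to 1.64) and 0.69 between P2+ and P2- CMPs (0.48 to 0.90). In the MEPs this ratio came from higher levels in about the same share of cells. At equal depth 10 of 56 P2- MEPs (17.9%) had a Bcl2 read, as had 8 of 47 P2+ MEPs (17.02%), while the median among cells with a read was 12.7 against 44.1 CPM. One P2+ MEP gave 32.8% of the reads of its population, and without the highest cell of each population the log2 ratio was 1.03. P2+ CMPs had the largest share, 17 of 42 cells (40.5%, 25.6 to 56.7), against 6 of 27 P2- CMPs (22.2%, 8.62 to 42.3), and those intervals overlapped. Bcl2 spans chr1:106538178-106714274 on the minus strand, and 6.09% of its exon bases overlap another gene.

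Mcl1, whose product is short-lived and which many cytokines induce, had the highest level per kb of exon of the survival genes in every population, and its order was different. P2- MEPs had 86.1 CPM (82.9 to 89.5), P2+ MEPs had 111.5 (107.8 to 115.2), P2- CMPs had 135.8 (130.5 to 141.2) and P2+ CMPs had 78.0 (75.2 to 81.0). P2- CMPs were highest and P2+ CMPs lowest. In P2+ CMPs Bcl2l1 was higher in CPM, at 89.9, and Mcl1 led there only per kb of exon. The cell medians were 71.8, 96.6, 134.8 and 55.7 CPM, in the same order as the pooled levels, and the highest cell of each population lay between 310 and 540 CPM. Mcl1 was read at equal depth in 51 of 56, 39 of 47, 22 of 27 and 30 of 42 cells.

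No Mcl1 ratio reached 2-fold. The log2 ratio was 0.37 between P2+ and P2- MEPs (0.30 to 0.45) and 0.66 between P2- CMPs and P2- MEPs (0.58 to 0.74), while it was -0.80 between P2+ and P2- CMPs (-0.88 to -0.72) and -0.51 between P2+ CMPs and P2+ MEPs (-0.59 to -0.44). With ERCC spike-in reads as the scale the MEP ratio turned to -0.24. Stress and immediate early genes such as Fos, Junb and Egr1, which rise during cell handling, summed to 266.6, 775, 669 and 742 CPM in the order of the populations. Their part in the differences of any member was not tested.

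**Figure D1:**
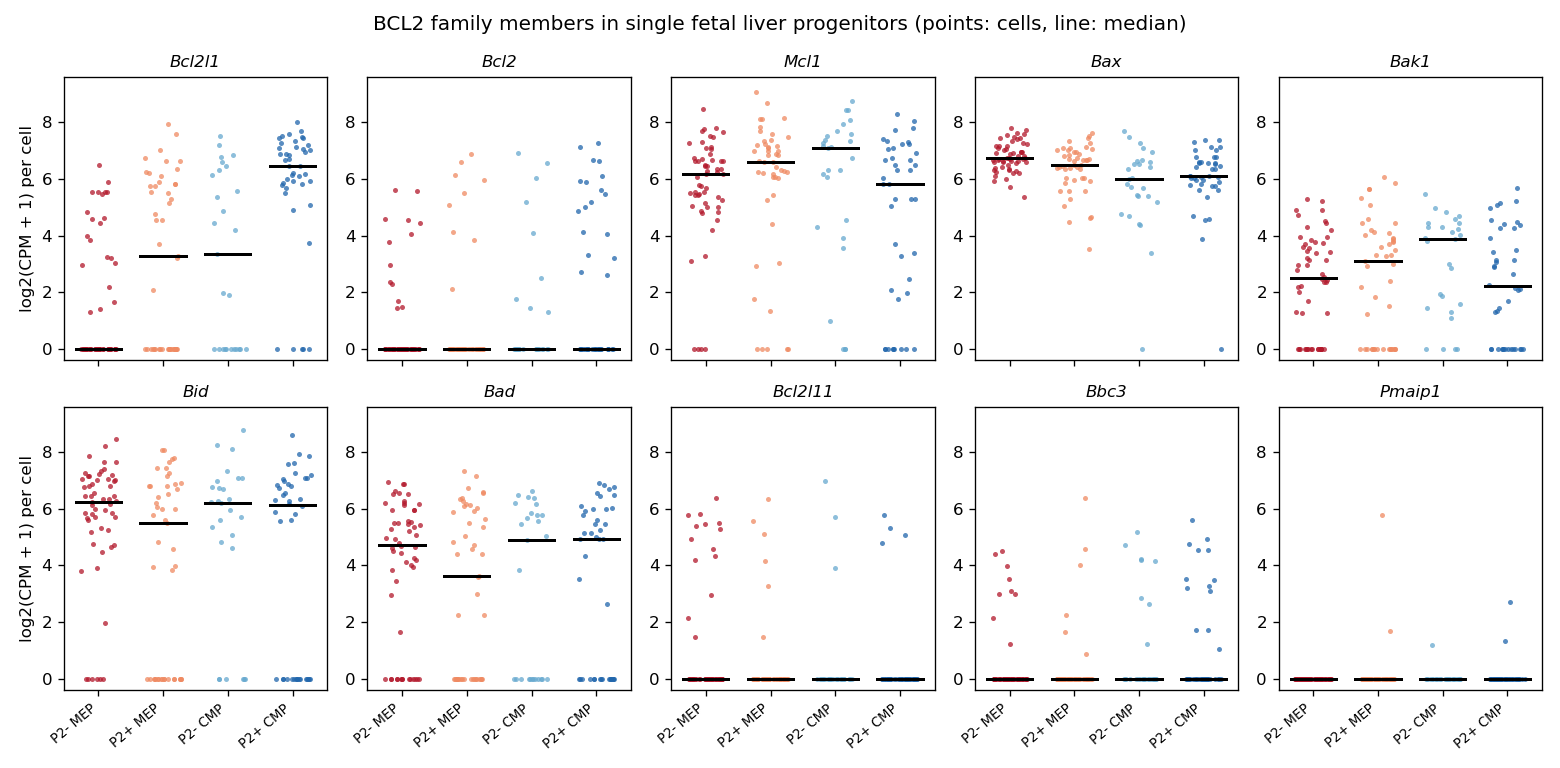
Level of each of the 10 members in every retained cell, as log2(CPM + 1) on the vertical axis, with the 4 populations on the horizontal axis. Points are cells and black lines are medians: the Bcl2l1 median was 0 CPM in P2- MEPs and 87.0 CPM in P2+ CMPs, Bcl2 medians were 0 throughout, and nearly every cell had Bax reads.

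Because genes differ in length, levels were set side by side as CPM per kb of exon that no other gene overlaps. That scale depends on the exon lengths taken, here those of all annotated transcripts merged. On that scale Mcl1 made up 90.3%, 80.2%, 77.7% and 50.8% of the summed level of Mcl1, Bcl2l1 and Bcl2, falling from P2- MEPs to P2+ CMPs. The share of Bcl2l1 was 8.17%, 17.5%, 19.2% and 43.6%, and that of Bcl2 was 1.48%, 2.32%, 3.09% and 5.65%. The sum itself was 27.9, 40.7, 51.1 and 44.97 CPM per kb, highest in P2- CMPs.

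The same balance was read cell by cell. Bcl2l1 lay above Mcl1 per kb in 2 of 56, 11 of 47, 4 of 27 and 21 of 42 cells. A cell with none of the 3 survival genes at equal depth was rare, with 3, 2, 2 and 1 cells. Bcl2 and Bcl2l1 were read together in 4, 4, 3 and 15 cells. In P2+ CMPs 15 of the 17 cells with a Bcl2 read also had a Bcl2l1 read, where 37 of all 42 cells had one.

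**Figure D2:**
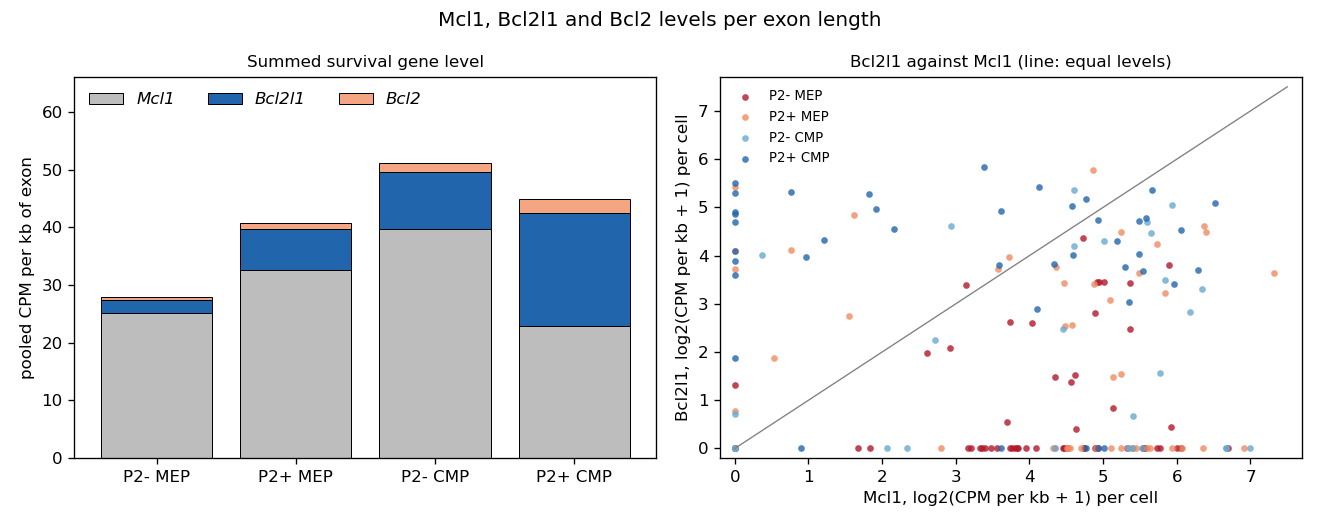
The left panel stacks the pooled levels of Mcl1, Bcl2l1 and Bcl2 in CPM per kb of exon for the 4 populations, with summed levels of 27.9, 40.7, 51.1 and 44.97. The right panel plots Bcl2l1 against Mcl1 in each cell as log2(CPM per kb + 1), where cells without a read of a gene lie at 0 and 21 of 42 P2+ CMPs lie above the line of equal levels against 2 of 56 P2- MEPs.

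Of the pore formers, Bax was read in nearly every cell. Pooled levels were 117.7 CPM (113.8 to 121.6), 91.5 (88.2 to 94.9), 77.3 (73.4 to 81.5) and 79.1 (76.2 to 82.0). P2- MEPs were highest, and the CMPs did not differ beyond counting error. The cell medians were 105.8, 89.4, 63.5 and 68.1 CPM, and at equal depth only 1 P2+ MEP, 2 P2- CMPs and 1 P2+ CMP had no Bax read. The log2 ratios were -0.36 between P2+ and P2- MEPs, -0.61 between P2- CMPs and P2- MEPs, -0.21 between P2+ CMPs and P2+ MEPs and 0.03 between P2+ and P2- CMPs, all short of 2-fold; on the ERCC scale the second of these was -1.12, past 2-fold. The direction was thus opposite to that of Bcl2l1 in 3 of the 4 comparisons; with ERCC reads as the scale, Bax between P2+ CMPs and P2+ MEPs turned to 0.22.

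Bak1, the second pore former, was low. Its pooled levels were 7.91 CPM (6.94 to 8.97), 13.1 (11.9 to 14.5), 13.4 (11.8 to 15.2) and 8.996 (8.05 to 10.03). The P2+ MEPs and P2- CMPs lay together above the other two, which is also the pattern of Mcl1. Its log2 ratios were 0.73 (0.50 to 0.97) in the MEPs, -0.58 (-0.82 to -0.33) in the CMPs, 0.76 between the P2- populations and -0.55 between the P2+ populations. At equal depth it was read in 25 of 56, 20 of 47, 19 of 27 and 20 of 42 cells. Overlap with Ggnbp1 takes 25.5% of the Bak1 exon bases, and reads there could be assigned to neither gene.

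Among the BH3-only genes, Bid, which links death receptors to mitochondria after cleavage by caspase-8, and Bad, which is held inactive by survival kinases, were read in most cells. Bid stood at 85.6, 69.0, 92.4 and 75.1 CPM. Both P2+ populations were lower than their P2- counterparts, by a log2 ratio of -0.31 (-0.39 to -0.23) in the MEPs and -0.30 (-0.39 to -0.21) in the CMPs. At equal depth 48 of 56 P2- MEPs (85.7%, 73.8 to 93.6) had a Bid read, against 27 of 47 P2+ MEPs (57.4%, 42.2 to 71.7), intervals that did not overlap, while the median among cells with a read was 83.8 and 103.2 CPM. On the ERCC scale the CMP ratio was 0.03. Overlap with Bcl2l13 takes 17.7% of the Bid exon bases.

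Bad was the most even member. It stood at 36.1, 36.5, 33.1 and 33.2 CPM, with log2 ratios of 0.02 (-0.10 to 0.14) in the MEPs and 0.00 (-0.14 to 0.15) in the CMPs. Its cells were less even than its pooled levels: at equal depth it was read in 38 of 56, 24 of 47, 15 of 27 and 25 of 42 cells, and the cell median was 11.5 CPM in P2+ MEPs against 25.5 in P2- MEPs.

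Bcl2l11 encodes BIM, which kills cells deprived of cytokine. Its pooled levels were 8.005 (7.03 to 9.07), 2.85 (2.29 to 3.50), 5.35 (4.34 to 6.51) and 2.81 (2.29 to 3.41) CPM. P2- MEPs were highest, and the other 3 populations gave 90, 98 and 102 reads. At equal depth 14 of 56 cells had a read there (interval 14.4 to 38.4%), against 6 of 47 (12.8%, 4.83 to 25.7), 2 of 27 (7.41%, 0.91 to 24.3) and 4 of 42 (9.52%, 2.66 to 22.6) in the other populations, and these intervals overlapped. The log2 ratio between P2+ and P2- MEPs was -1.49 (-1.85 to -1.14). In P2- CMPs 72 of the 98 reads came from 1 cell, and without it the level was 1.46 CPM. The CMP ratio, -0.93, turned to 0.34 without the highest cell of each population.

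Bbc3 encodes PUMA and Pmaip1 encodes NOXA, which p53 induces. Bbc3 gave 47, 90, 90 and 183 reads, or 1.54, 2.85, 4.91 and 5.03 CPM, in 9, 6, 8 and 13 cells before thinning. The CMPs were above the MEPs, with a log2 ratio of 1.68 (1.15 to 2.22) between the P2- populations. In P2- CMPs 41 of the 90 reads came from 1 cell, and without it their level was 2.85 CPM. At equal depth 6 of 56 P2- MEPs (4.03 to 21.9%) and 6 of 27 P2- CMPs (8.62 to 42.3%) had a read, and these intervals overlapped. In P2+ MEPs 56 of the 90 reads came from 1 cell, and the MEP ratio of 0.89 turned to -0.19 without the highest cell of each population. In P2- MEPs no Pmaip1 read was counted, a floor of 0.098 CPM (3 reads), and it gave 35, 1 and 5 reads in the other populations. Of the 35 reads in P2+ MEPs, 34 came from 1 cell.

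**Figure D3:**
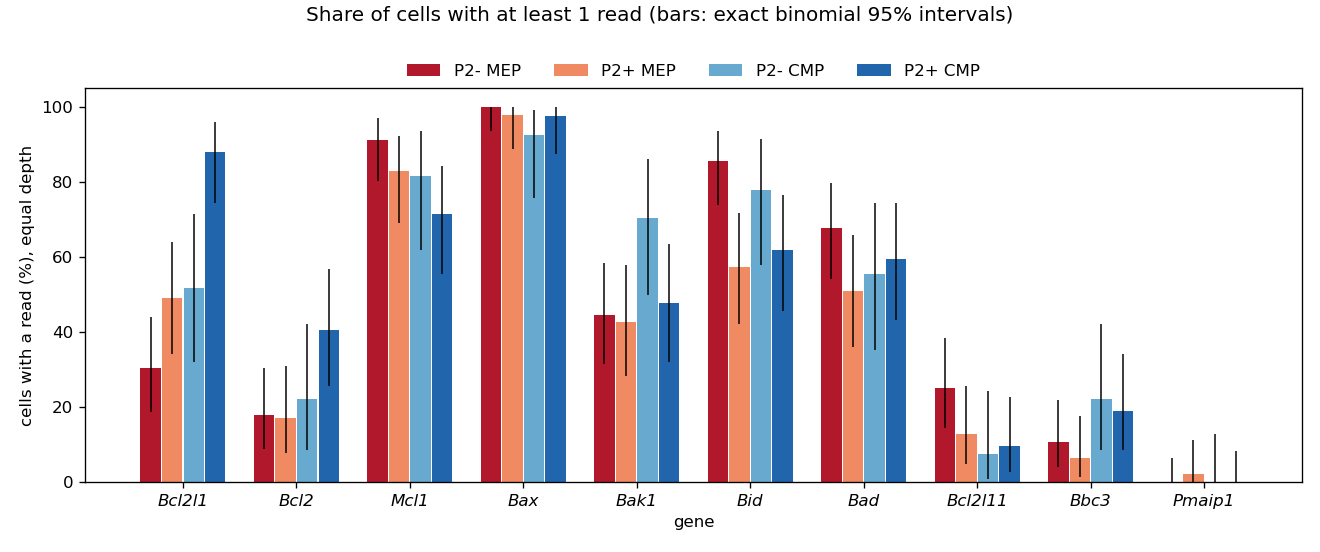
Share of cells with at least 1 read of each member, in percent, after thinning every cell to 100000 mouse reads. Bars are populations and lines are exact binomial 95% intervals: Bcl2l1 went from 30.4% of P2- MEPs to 88.1% of P2+ CMPs, whereas Bid had a read in 85.7% of P2- MEPs but 57.4% of P2+ MEPs.

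Read against all 9238 genes, the members past 2-fold were few and always Bcl2l1 and Bcl2. Between P2+ and P2- MEPs 2 of 7 members were at least 2-fold higher and 0 lower, where 7.3% of all genes were higher and 2.77% lower. Between P2- CMPs and P2- MEPs it was again 2 higher and 0 lower, beside 11.9% and 6.87% of all genes, and between P2+ CMPs and P2+ MEPs 2 and 0, beside 7.9% and 7.57%. Between P2+ and P2- CMPs 0 of 7 passed in either direction, beside 3.61% and 4.57%. Bcl2 was close to the 25% filter, with a read in 28.5% of all cells, and passed it through the CMPs: without thinning 23.2%, 19.1%, 33.3% and 42.9% of the cells of the populations had a Bcl2 read. The counts of 2 rest on its passing, and they are no support for a difference of the set from other genes. The median log2 ratio of the 7 members was 0.37, 0.66, -0.14 and 0.00 in these comparisons, and that of all genes was 0.01, -0.01, -0.06 and -0.03. The comparisons share populations, so they are not independent of each other. Mouse reads per ERCC read were 63.1, 41.1, 44.2 and 55.5 over the populations; on the ERCC scale every MEP ratio was lower by the same step, with the median of all genes at -0.61, and Bcl2l1 stood at 1.02 and Bcl2 at 0.57.

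**Figure D4:**
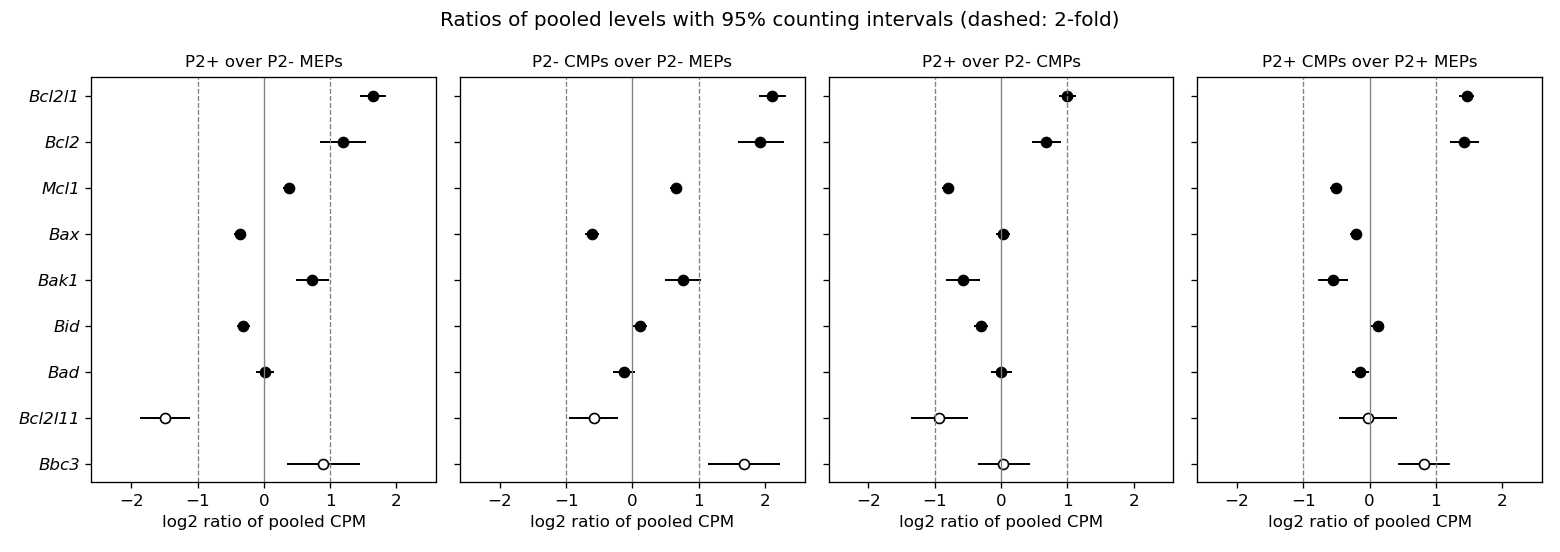
Log2 ratios of pooled CPM for 9 members in the 4 comparisons, with 95% counting intervals and dashed lines at 2-fold. Filled points are the 7 members with a read in at least 25% of cells and open points are Bcl2l11 and Bbc3: Bcl2l1 and Bcl2 lie beyond the upper dashed line in 3 panels, and Bcl2l1 lies at 0.998 between P2+ and P2- CMPs.

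The members showed little covariation from cell to cell. Over the 172 cells at equal depth, which share sparse counts and 4 populations of different makeup, the highest Spearman rho between any pair of members was 0.212, for Bak1 and Bad, and Bcl2 with Bcl2l1 gave 0.118. Each cell had reads of a median of 4 or 5 members and at least 1. One gene had a rho of at least 0.5 with a member: Ptgs1, which encodes the cyclooxygenase of platelets, with Bcl2l1 at 0.566. Among 8 lineage anchors Bcl2l1 gave 0.482 with the megakaryocytic factor Fli1, 0.452 with Mpo and -0.446 with the erythroid factor Klf1. Within single populations the value with Fli1 was 0.471 in P2+ MEPs and 0.448 in P2- CMPs, and 0.081 and 0.112 in P2- MEPs and P2+ CMPs, while with Klf1 it lay between -0.187 and 0.07 in all 4 and with Mpo between 0.026 and 0.279.

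Of 17 other BCL2 family genes 5 were among the 9238, and 7 had no read in any population, among them Bik, Bmf and Hrk. Of those 5 genes, Bcl2l12 alone passed 2-fold, at 1.002 between P2+ CMPs and P2+ MEPs, beside 7.9% of all genes higher there. The median log2 ratio of the 5 was 0.05 in the MEPs and 0.09 between the P2- populations. Among the genes read in fewer cells, Bok, a relative of Bax and Bak1 named here after its values were seen, had 58, 91, 525 and 1519 reads, a log2 ratio of 3.92 between the P2- populations and 3.86 between the P2+ populations. Within the same 5 genes, the highest ratios in the MEPs were those of the mitophagy gene Bnip3 (0.50) and of Bnip2 (0.45), and the lowest those of Bcl2l13 (-0.19) and Bcl2l12 (-0.11). Of the 5, Bcl2l12 (0.91) and Bnip3 (0.83) were highest between the P2- populations and Bcl2l13 (-0.89) and Bnip3l (0.02) lowest.

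Downstream of the pore, all 18 genes of the mitochondrial machinery were among the 9238. In the MEPs the median log2 ratio of the list was -0.20, Htra2 stood at -0.71, and Casp9 (0.73) and Dnm1l (0.51) were highest. Between the P2- populations Endog (-1.55) and Htra2 (-1.35), both released from the mitochondrial intermembrane space, were lower past 2-fold, Casp2 stood at 0.76, and the median was -0.08.

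Of 14 death receptor genes and caspase inhibitors 11 were among the 9238. Between P2- CMPs and P2- MEPs 6 were at least 2-fold higher and 0 lower, beside 11.9% and 6.87% of all genes, and the median log2 ratio was 1.03 beside -0.01 for all genes. The 6 were Tnfrsf1a (3.69), the TNF receptor, Ripk1 (2.21), Casp8, Cflar, Xiap and Tnfrsf21. The lowest were Tradd (-0.79) and Birc2 (-0.16). In the MEPs Tnfrsf1a alone of the 11 passed (2.06), beside 7.3% of all genes higher and 2.77% lower. Cflar was next (0.81), Tradd (-0.05) and Fadd (0.05) were lowest, and the median was 0.63 beside 0.01 for all genes. Fas had no read in P2- MEPs and P2- CMPs, and only 1.2% of all retained cells had one.

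Of 16 genes around p53, 10 were among the 9238. Cdkn1a, the cell cycle inhibitor p21, was higher in P2+ than in P2- MEPs by 3.10 and in P2- CMPs than in P2- MEPs by 3.18. It was alone past 2-fold among the 10 in the MEPs, beside 7.3% of all genes higher and 2.77% lower. There Sesn1 stood at 0.61, Aen at -0.86, Ei24 at -0.82 and the median at -0.15. Between the P2- populations Sesn1 (1.81) was also higher, and Phlda3 (-1.46) and Ccng1 (-1.04) were lower.

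All 20 upstream regulators of the family, the receptors, kinases and factors that control its transcription or stability, were among the 9238. Epor, the erythropoietin receptor, was lower in P2+ than in P2- MEPs by a log2 ratio of -1.10, and Csf2rb, the common beta chain of the IL-3, IL-5 and GM-CSF receptors, had no read in P2- MEPs and was higher by at least 6.49. Foxo1 was also at least 2-fold higher there, and Myc stood at -0.19. Between the P2- populations Epor (-1.85) and Gata1 (-1.37) were lower, and Csf2rb (at least 8.67) was highest. Bcl2l1 and Epor thus differed in opposite directions in all 4 comparisons: the log2 ratio of Epor was -1.14 between P2+ and P2- CMPs and -1.88 between P2+ CMPs and P2+ MEPs. Gata1, like Epor one of the erythroid markers, was also opposite to Bcl2l1 in all 4, while Csf2rb went with Bcl2l1 in all 4. A link of any of these genes to Bcl2l1 was not tested.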

How the data were processed

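Single cells were sorted into 384-well plates and libraries were made from full-length cDNA with ERCC spike-ins. The authors trimmed reads with Trimmomatic 0.36, aligned them with STAR 2.4.2a to GRCm38 plus ERCC sequences and counted them over exons without strand with HTSeq 0.6.1p1; the deposited values are raw counts per gene and cell. The deposited cell table gives the unmapped reads as a percentage of all reads, from the alignment statistics of the authors. Cells with at least 250000 reads, at most 25% unmapped and at most 15% ERCC reads were kept (3 removed). HTSeq drops reads that overlap exons of more than 1 gene: 25.6% of uniquely aligned reads were ambiguous and 7.4% lay in no feature, and both were left out.

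Each population was 1 sample. Counts were summed over its cells and divided by summed mouse reads (CPM), with exact Poisson intervals; ratios had exact conditional binomial intervals, and a population with 0 reads was set to 3 reads for a lower bound. A call was a 2-fold change among genes that at least 25% of cells had reads of. For shares, each cell was thinned to 100000 mouse reads (seed 1, no cell left out). Exon lengths came from a later GENCODE annotation of the same build than the authors used. The ratio code was tested on simulated data. The members and gene lists were chosen with earlier results of these data known. The text names all members, and from each list the 2 highest and 2 lowest genes in the MEP and P2- comparisons, others being named after their values were seen. Some genes of these lists are not reported here. Python 3.11.15, numpy 2.4.6, pandas 2.3.3, scipy 1.17.1 and R 4.3.3 with DESeq2 1.42.0 (size factors only, as an alternative) were used.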

Additional observations from a re-analysis of the deposited data

Results flagged for a closer look

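For Mcl1 and Bak1 the direction between P2+ and P2- cells was opposite in MEPs and in CMPs, and this difference was not tested, since each population was 1 sample. Mcl1 had a log2 ratio of 0.37 between P2+ and P2- MEPs and of -0.80 between P2+ and P2- CMPs. Bak1 had a log2 ratio of 0.73 between P2+ and P2- MEPs and of -0.58 between P2+ and P2- CMPs. With ERCC reads as the scale Mcl1 gave -0.24 and -0.47, which is the same direction in both, and Bak1 gave 0.12 and -0.25.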

How the results depend on the processing

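The count of members past 2-fold was 2, 0, 2 and 2 in P2+ over P2- MEPs, P2+ over P2- CMPs, P2- CMPs over P2- MEPs and P2+ CMPs over P2+ MEPs. Between P2+ and P2- CMPs it was 1 (Bcl2l1) with equal weight for every cell, with DESeq2 size factors, with a total without mitochondrial genes and features above 5% of reads, without the P2- CMP with conflicting labels and without the highest cell of each population, 2 (with Bcl2) on the ERCC scale, and 3 (with Mcl1 lower) at 1.5-fold. In the MEPs it was 1 (Bcl2l1) on the ERCC scale and 4 with every gene of at least 10 reads, which added Bcl2l11 lower and Pmaip1 higher. Between the P2- populations it was 5 at 1.5-fold and 3 (with Bax lower) on the ERCC scale. Of the recomputed counts 10 moved, from 0 or by more than 1.5 times, and 26 stayed within that range, the last count of 3 among them. That lower read minimum raised the share of all genes called in the MEPs to 20.4% higher and 12.5% lower, and the ERCC scale turned it to 3.06% and 17.5%. Among the recomputed log2 ratios of single members 58 left their counting interval. Bcl2l1 in the MEPs ran from 1.02 to 1.92 and Bcl2 from 0.57 to 1.36. No paired analysis was possible because the labels give no replicate numbers within a population and each population was 1 sample. Sparse reads limit Bcl2l11, Bbc3 and Pmaip1, each of which had at least 1 population where 1 cell gave most of the reads, and the spread between embryos is unknown for all members.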
